A study of Mus musculus with 8 samples.

Results

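The glucocorticoid receptor and a set of genes that report on its activity were followed in mouse cells by RNA sequencing. The set was given as a list of 10 genes, out of 49671 genes with a count row. It holds 2 receptors, Nr3c1 (the glucocorticoid receptor) and Nr3c2 (the mineralocorticoid receptor, which binds the same hormones), and the hormone-activating enzyme gene Hsd11b1. The other 7 are target genes, namely Fkbp5, Tsc22d3, Sgk1, Zbtb16, Klf9, Mt1 and Mt2. Polyadenylated RNA came from 8 samples that the labels call mouse adipocytes. In 4 of them the treatment label is BMPR2 DELX, which the series text calls a mutant, and in 4 it is ROSA, which the series text names as the control. The allele behind each name, its promoter, the age and sex of the animals, any culture step and any hormone given are not stated in the sources used here. Nor is it stated that each sample is its own animal or culture, and the p-values then measure only the spread between these samples, which may be technical.

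The glucocorticoid receptor is a hormone-activated transcription factor. It waits in the cytoplasm in a complex with heat shock protein chaperones, moves to the nucleus when corticosterone or a synthetic steroid binds, and sits as a dimer on a palindromic DNA element. From there it raises some genes, while it lowers many inflammatory genes, largely through contact with other transcription factors. In fat tissue, glucocorticoids are known for driving the differentiation of preadipocytes, and the enzyme encoded by Hsd11b1 makes active hormone from its inactive keto form inside the cell. The metallothionein genes Mt1 and Mt2 respond to glucocorticoids and also to zinc and other metals, through separate elements.

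The labelled cell type was checked against marker genes. Of 14 adipocyte markers, 7 stayed under 1 count per 1e6 counts (CPM) in every library, and 5 of those (Lep, Retn, Plin1, Cidec and Cfd) never passed 3 counts. Adipoq reached 6 counts at most. The 7 tested adipocyte markers were detected in every library, with Fabp4 at 33.8 to 74.4 CPM, Pnpla2 at 32.8 to 48.9 CPM and Pparg at 12.4 to 26.3 CPM. Acsl1, Cebpa, Dgat2 and Lipe lay between 3.64 CPM (Lipe) and 22.7 CPM (Cebpa), and 0 of the 7 were called. Summed fibroblast markers were high, at 11059 to 15945 CPM in BMPR2 DELX and 10063 to 12352 CPM in ROSA. Most of that sum was Col1a1 (4457 to 7430 CPM) and Col1a2 (3695 to 5658 CPM), while Dcn had 6.22 to 34.4 CPM. Lum and Fap stayed at or under 1.24 and 1.83 CPM. Summed smooth muscle markers were also high, at 8879 to 12079 CPM in BMPR2 DELX and 10460 to 13969 CPM in ROSA, mostly Acta2 and Tagln. Fibroblast markers scored 7.81 to 8.15 mean log2 CPM in BMPR2 DELX against 7.26 to 7.74 in ROSA (1 of 9 tested called higher). Smooth muscle markers scored 8.39 to 8.76 in BMPR2 DELX against 8.59 to 9.11 in ROSA. All 6 were tested and 0 called, and all 6 had a log2 fold change below 0 (median -0.25). Macrophage markers, 6 of 10 of which stayed under 1 CPM, summed to 37.4 to 70.1 CPM in BMPR2 DELX against 25.0 to 36.4 CPM in ROSA (1 of 4 tested called higher). Epithelial markers scored 0.40 to 3.06 mean log2 CPM in BMPR2 DELX against -0.24 to 1.05 in ROSA, highest in BMPR2 DELX 3. Of 6 tested, 5 were at an unadjusted p below 0.05 and 1, Pax8, was called higher (3.38 ± 0.87), with a list median of 2.16. Among those 5, Krt19 went the other way (-1.12 ± 0.30), with 7.57 to 20.4 CPM in BMPR2 DELX against 22.4 to 30.7 CPM in ROSA. Summed epithelial levels overlapped, at 22.8 to 55.5 CPM in BMPR2 DELX against 32.3 to 46.9 CPM in ROSA. Epcam and Cdh1 stayed under 0.167 CPM. The part of these cell types in the differences below was not tested. The depth was 28799445 to 43684785 gene counts per library. In ROSA 1 and ROSA 2, immediate early genes, the fast responders to serum and stress signals, scored 6.42 and 6.66 mean log2 CPM, against 5.12 and 5.01 in ROSA 3 and ROSA 4 and 4.67 to 4.92 in BMPR2 DELX. Endothelial markers were lowest in BMPR2 DELX 3 (307 CPM summed) and ROSA 3 (571 CPM), against 681 to 1355 CPM in the other libraries. Each of the 10 genes that could be tested is also given without ROSA 1 and ROSA 2, and Hsd11b1 also without BMPR2 DELX 3 and ROSA 3.

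DNA sequences are shown for 3 start-site windows, because they carry the elements that the receptor or metals act through. RefSeq windows (GRCm38.p6) of 250 bases before to 50 bases after a transcription start were found for 8 of the 10 genes, 15 windows in all, and Nr3c1 and Zbtb16 had none. Each was searched on both strands for the full receptor element, which is AGAACA, any 3 bases and TGTTCT, for its single arm AGAACA, which the full element contains, and for the metal response element, TGCACNC or TGCGCNC. The full element was found in 1 of the 15 windows, an upstream start of Sgk1 at chr10:21993640-21993939 on the plus strand, where capitals mark it:
Sgk1: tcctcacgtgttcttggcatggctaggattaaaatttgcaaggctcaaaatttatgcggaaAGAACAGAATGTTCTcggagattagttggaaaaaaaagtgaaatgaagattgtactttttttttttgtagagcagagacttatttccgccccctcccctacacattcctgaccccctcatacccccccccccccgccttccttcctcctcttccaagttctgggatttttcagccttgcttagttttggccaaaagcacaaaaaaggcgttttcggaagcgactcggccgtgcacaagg
The element occupies bases 21993701 to 21993715 of chromosome 10, 189 bases before the start site of that window and 965 bases before the most downstream of the 6 annotated Sgk1 starts. Of all 32851 RefSeq windows of this length, 3 (0.00913%) hold these letters. The single arm was found in 19.0% of all windows, and in windows of Sgk1 and Tsc22d3 among the 10 genes. The windows of Mt2 (chr8:94172368-94172667) and Mt1 (chr8:94178839-94179138), both on the plus strand, are shown with the metal response element in capitals:
Mt2: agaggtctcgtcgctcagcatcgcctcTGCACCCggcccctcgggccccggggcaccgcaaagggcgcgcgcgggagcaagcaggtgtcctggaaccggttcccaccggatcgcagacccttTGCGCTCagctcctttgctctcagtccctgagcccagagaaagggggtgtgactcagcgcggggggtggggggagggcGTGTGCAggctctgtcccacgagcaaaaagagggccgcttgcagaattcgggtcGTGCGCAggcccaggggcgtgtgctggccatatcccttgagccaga
Mt1: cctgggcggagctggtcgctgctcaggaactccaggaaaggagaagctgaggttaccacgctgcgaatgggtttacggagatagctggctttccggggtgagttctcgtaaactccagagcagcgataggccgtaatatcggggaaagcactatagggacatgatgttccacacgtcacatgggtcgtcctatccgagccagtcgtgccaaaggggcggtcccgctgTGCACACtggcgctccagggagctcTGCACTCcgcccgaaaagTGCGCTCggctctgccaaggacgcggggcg
The Mt2 window holds 4 matches and the Mt1 window 3, and neither holds the single arm of the receptor element. At least 1 match of the metal response element was found in 25.7% of all windows, and 3 or more in 1.97%. A match describes letters, and no binding was measured.

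Levels of the 10 genes were compared as CPM per kilobase of merged annotated exons, over all 8 libraries. On that scale Mt2 (109 ± 24.5, SD) and Mt1 (98.3 ± 20.2) stood highest, followed by Sgk1 (61.0 ± 19.5), Nr3c1 (15.0 ± 2.02), Klf9 (11.6 ± 1.56), Fkbp5 (5.41 ± 0.786), Tsc22d3 (3.51 ± 0.624), Hsd11b1 (3.27 ± 1.55), Nr3c2 (0.315 ± 0.0607) and Zbtb16 (0.00496 ± 0.00465). The library ranges of neighbours in this order overlapped, except between Sgk1 and Nr3c1, between Klf9 and Fkbp5, between Hsd11b1 and Nr3c2, and between Nr3c2 and Zbtb16. Glucocorticoid receptor transcripts thus stood well above those of the mineralocorticoid receptor. At most 0.456% of the 50-base words of any of these genes' transcripts also occur in a gene outside the 10, and 0 of those of Mt1 and Mt2.

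BMPR2 DELX was compared with ROSA by edgeR's quasi-likelihood test over 14887 genes, with 4 libraries in each group. A log2 fold change is the BMPR2 DELX level over the ROSA level and is printed ± its standard error. Calls needed a Benjamini-Hochberg adjusted p under 0.05. Of the 10 genes, 9 had enough counts to be tested, 1 (Sgk1) was called lower, 0 were called higher and 8 were not called. Over all tested genes, 9.10% were called, 5.15% lower and 3.96% higher, so 1 of 9 is near the background. Upper-quartile scaling moved the calls over all genes from 589 higher and 766 lower to 734 higher and 606 lower, and the median of all genes to 0.04. By unadjusted edgeR p, 2 of the 9 genes were below 0.05, as were 26.3% of all tested genes, and DESeq2 also called 1. The log2 fold change was negative for 7 genes and positive for Mt1 and Mt2, and the median was -0.20, against 0.0045 over all tested genes. The median of the 9 was -0.06 without ROSA 1 and ROSA 2. Levels below are CPM scaled by trimmed mean of M values (TMM) factors.

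**Figure D1:**
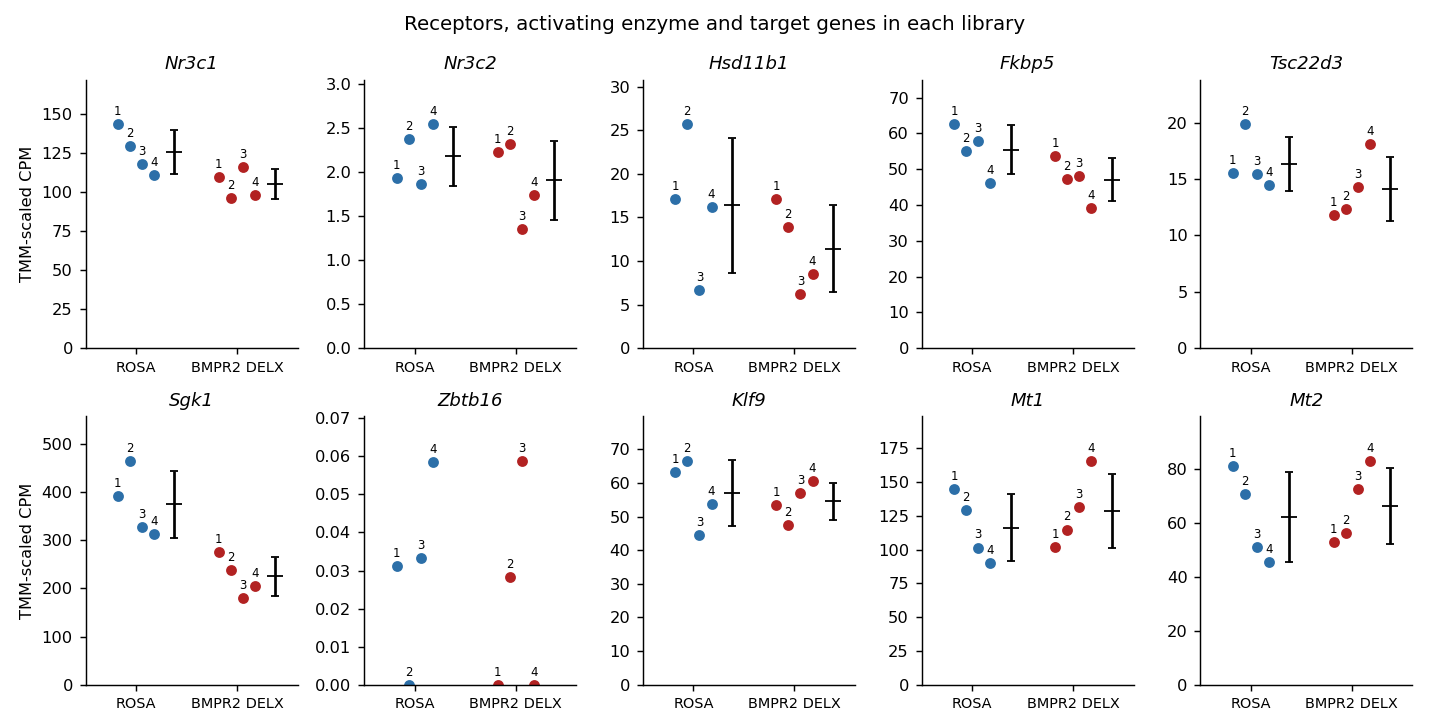
Each panel plots 1 gene, with the TMM-scaled CPM of each of the 4 ROSA (blue) and 4 BMPR2 DELX (red) libraries on a linear axis from 0, each point numbered by replicate, and black marks showing the mean ± SD (left out for Zbtb16, which was not tested). Sgk1 is the gene whose groups do not overlap, with 180.5 to 275 CPM in BMPR2 DELX against 313 to 464 CPM in ROSA.

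Nr3c1 (ENSMUSG00000024431, GRCm38 chromosome 18, 39410545 to 39519421) encodes the glucocorticoid receptor. It had 109.7, 96.3, 116 and 98.0 CPM in BMPR2 DELX 1 to 4 and 143, 129.6, 118 and 111 CPM in ROSA 1 to 4. ROSA 1, ROSA 2 and ROSA 3 stood above every BMPR2 DELX library, while ROSA 4 lay below BMPR2 DELX 3, so the groups overlapped. Means were 105 ± 9.43 and 125 ± 14.2 CPM (SD, n = 4), and the log2 fold change was -0.26 ± 0.09 with an edgeR adjusted p of 0.114. The 95% interval, -0.46 to -0.05, is not adjusted for the number of genes. Without ROSA 1 and ROSA 2 the log2 fold change was -0.11. In bulk samples, fewer cells that express a gene and less RNA per cell cannot be told apart, and this holds for every level here.

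Nr3c2 (ENSMUSG00000031618, chromosome 8, 76899442 to 77245012), the mineralocorticoid receptor gene, was low. It had 2.23, 2.31, 1.35 and 1.74 CPM in BMPR2 DELX 1 to 4 and 1.93, 2.38, 1.86 and 2.54 CPM in ROSA 1 to 4, from 46 to 98 counts per library. The groups overlapped, and BMPR2 DELX 3 was lowest. BMPR2 DELX over ROSA gave -0.19 ± 0.21 in log2, with an edgeR adjusted p of 0.601. The interval was -0.67 to 0.28, and without ROSA 1 and ROSA 2 the value was -0.20.

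The progesterone receptor binds the same palindromic element. Pgr, the progesterone receptor gene, averaged 25.1 ± 5.06 CPM in BMPR2 DELX against 5.68 ± 3.12 CPM in ROSA and rose by 2.14 ± 0.33 in log2 (edgeR adjusted p 0.0101). Its call was lost without ROSA 1 and ROSA 2 (1.84, adjusted p 0.103, the highest of 17 alternatives).

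Hsd11b1 (ENSMUSG00000016194, chromosome 1, 193221634 to 193264075) encodes the enzyme that regenerates active glucocorticoid. It had 17.1, 13.9, 6.16 and 8.51 CPM in BMPR2 DELX 1 to 4 and 17.1, 25.7, 6.72 and 16.2 CPM in ROSA 1 to 4. The level varied about as much within a group as between groups, being lowest in BMPR2 DELX 3 and ROSA 3 and highest in ROSA 2. The log2 fold change was -0.53 ± 0.44, with an edgeR adjusted p of 0.482 and an interval of -1.54 to 0.48. The 2 lowest libraries also had the lowest endothelial marker scores, 3.89 and 4.40 mean log2 CPM, against 5.01 to 5.74 in the others. The part of endothelial cells in this spread was not tested. Without BMPR2 DELX 3 and ROSA 3 the log2 fold change was -0.58 ± 0.27 (adjusted p 0.233), and without ROSA 1 and ROSA 2 it was 0.0065 (adjusted p 0.996), within a range of 0.134 to 0.996 over 17 alternatives. Another annotated gene, Gm38118, overlaps Hsd11b1 on the same strand.

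**Figure D2:**
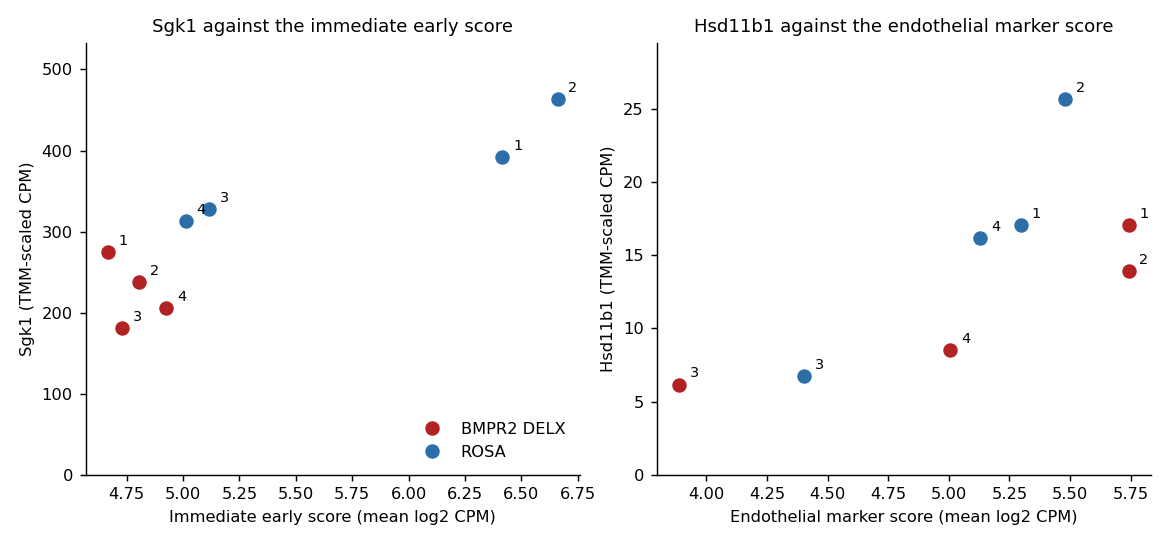
Left, TMM-scaled CPM of Sgk1 against the immediate early score, and right, TMM-scaled CPM of Hsd11b1 against the endothelial marker score, both scores in mean log2 CPM of the tested list genes, with 1 point per library numbered by replicate, BMPR2 DELX red and ROSA blue. ROSA 1 and ROSA 2 stand apart at immediate early scores of 6.42 and 6.66, and BMPR2 DELX 3 and ROSA 3 combine the lowest endothelial scores with the lowest Hsd11b1.

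Genes that supply, carry or inactivate steroids, Hsd11b1 included, were called in both directions. Of 16 listed, 11 were tested, 1 was higher, 2 were lower and 8 were not called, with a median log2 fold change of 0.06. Of all tested genes, 3.96% were called higher and 5.15% lower. Star, which moves cholesterol into mitochondria for steroid synthesis, rose by 1.11 ± 0.22, with a mean of 10.1 ± 2.48 CPM against 4.71 ± 1.18 CPM in ROSA (edgeR adjusted p 0.0178). Hsd3b1, a dehydrogenase of steroid synthesis, fell by 1.79 (SE 0.32), with a mean of 0.614 ± 0.162 CPM against 2.15 ± 0.702 CPM in ROSA. Cyp3a13, a steroid-oxidising cytochrome, fell by 1.57 (SE 0.28), with a mean of 0.183 ± 0.0378 CPM against 0.555 ± 0.0703 CPM in ROSA. Its level was low, with 5 to 10 counts per BMPR2 DELX library and 15 to 24 per ROSA library. Star lost the call without ROSA 2 and without BMPR2 DELX 3 and ROSA 3, and all 3 lost it without ROSA 1 and ROSA 2, when 0 genes of this list passed. That fit has fewer libraries, and calls over all tested genes fell from 1355 to 172. Over the alternatives that tested them, log2 fold changes ran from 0.95 to 1.30 for Star, -2.01 to -1.59 for Hsd3b1 and -1.69 to -1.46 for Cyp3a13. Akr1c14, a steroid reductase, had a log2 fold change of 0.33 ± 0.15 (adjusted p 0.205). Cyp11a1 and Cyp21a1, which begin and continue corticosteroid synthesis, and Serpina6, the plasma carrier of corticosterone, had at most 3 counts in any library. Cyp11b1, which forms corticosterone, had 4.14 to 6.75 CPM in BMPR2 DELX and 1.89 to 5.46 CPM in ROSA (log2 fold change 0.65 ± 0.32, edgeR adjusted p 0.228). Hsd11b2, which inactivates corticosterone, stayed at or under 0.358 CPM.

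The chaperones and coregulators that hold or assist the receptor were not called in either direction by edgeR. Of 19 listed, 18 were tested and 0 passed the edgeR test, with 3 at an unadjusted p below 0.05 and 2, Hsp90aa1 and Dnajb1, called lower by DESeq2. The median was -0.006. Hsp90aa1, the inducible form of the chaperone that keeps the receptor ready for hormone, averaged 627 ± 35.1 CPM in BMPR2 DELX against 743 ± 53.6 CPM in ROSA (log2 fold change -0.24 ± 0.07, edgeR adjusted p 0.0635), and every BMPR2 DELX library lay below every ROSA library, as for 9.65% of all tested genes. Fkbp4, the cochaperone that favours transport of the receptor to the nucleus, had 78.6 ± 5.32 and 67.1 ± 6.72 CPM (0.23 ± 0.08, adjusted p 0.108). Dnajb1, a partner of the heat shock protein chaperones, had a log2 fold change of -0.39 ± 0.13 (adjusted p 0.0843), and Med14, a Mediator subunit that contacts the receptor, one of -0.21 ± 0.10 (adjusted p 0.196). Without ROSA 4 the called partners were Hsp90aa1 and Dnajb1, both lower, and without ROSA 3 Fkbp4, higher.

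Sgk1 (ENSMUSG00000019970, chromosome 10, 21882184 to 21999903) encodes a kinase that keeps sodium channels and transporters at the cell surface, and is a target of both receptors and of serum. It had 275, 237, 180.5 and 206 CPM in BMPR2 DELX 1 to 4 and 392, 464, 328 and 313 CPM in ROSA 1 to 4. Every BMPR2 DELX library lay below every ROSA library, and ROSA 1 and ROSA 2 were the highest. The groups were separated in the lower direction for 9.65% of all tested genes. The mean was 225 ± 40.7 CPM in BMPR2 DELX, 0.601 of the 374 ± 68.9 CPM in ROSA by the fit, and Sgk1 fell by 0.74 in log2 (SE 0.16, 95% interval -1.09 to -0.39, edgeR adjusted p 0.0228). It ranked 624 of 14887 genes by p. Sgk1 supplied 6 of the 15 windows searched, and 1 of them holds the full receptor element printed above. The part of this element in the Sgk1 difference was not tested.

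The call for Sgk1 was close to the threshold, although its direction was the same under all 17 alternatives. It was lost without BMPR2 DELX 2 (adjusted p 0.0525), BMPR2 DELX 4 (0.0564), ROSA 1 (0.0673) or ROSA 2 (0.0588), and with no count filter (0.0763). Without both ROSA 1 and ROSA 2, the libraries with high immediate early scores, the log2 fold change was -0.50 ± 0.15 with an adjusted p of 0.179, the highest of the alternatives, which began at 0.00018 with DESeq2. ROSA 3 and ROSA 4 had 328 and 313 CPM and BMPR2 DELX 180.5 to 275 CPM. The part of the immediate early state in the Sgk1 difference was not tested.

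**Figure D3:**
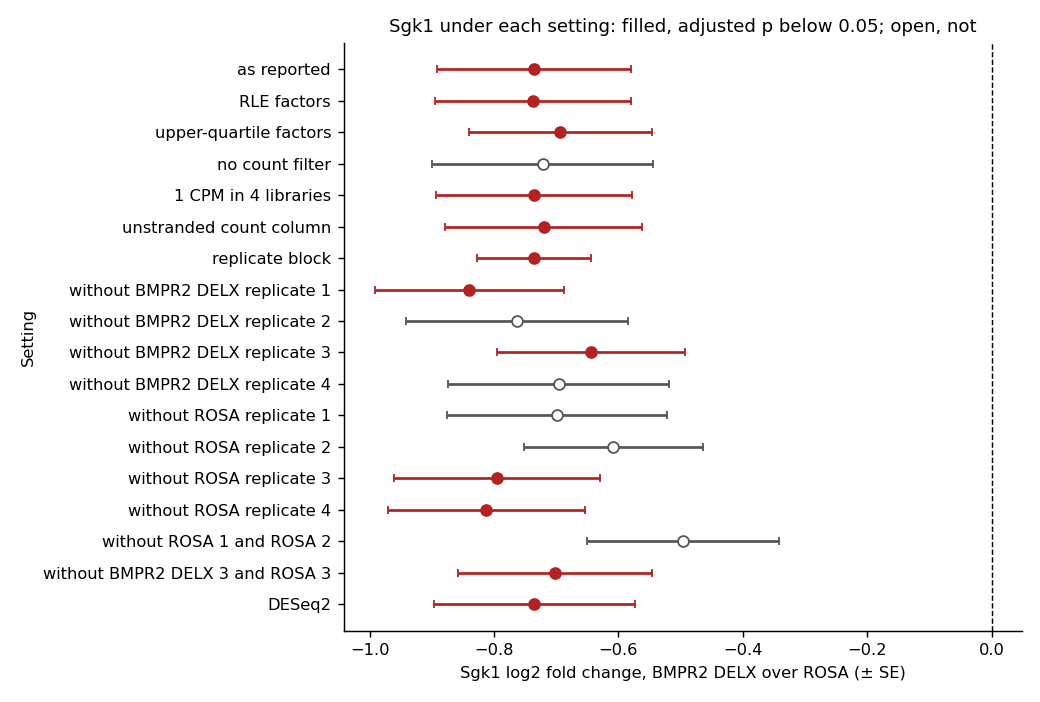
Log2 fold change of Sgk1, BMPR2 DELX over ROSA, with its standard error as bars, as reported (top) and under each of 17 other settings, filled where the adjusted p was below 0.05. All points lie below 0, from -0.84 without BMPR2 DELX replicate 1 to -0.50 without ROSA 1 and ROSA 2.

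Targets and effectors of the mineralocorticoid receptor pathway were described from a list of 13, which includes Sgk1 and Tsc22d3. Of 9 tested, 4 were lower, 0 were higher and 5 were not called, with a median of -0.20. For all tested genes the shares were 5.15% lower and 3.96% higher, with a median of 0.0045. Besides Sgk1, Nedd4l, the ubiquitin ligase that Sgk1 restrains, fell by 0.46 (SE 0.10, edgeR adjusted p 0.0209), with a mean of 108 ± 15.8 CPM against 149 ± 5.22 CPM in ROSA. Nedd4l is listed as a part of the pathway, and its fall is not read as that of an induced gene. Atp1b1, the beta subunit of the sodium pump, fell by 1.56 (SE 0.31, adjusted p 0.0233), with a mean of 26.6 ± 8.75 CPM against 78.1 ± 25.7 CPM in ROSA. Per1, a clock gene that both receptors induce, fell by 0.57 (SE 0.15, adjusted p 0.0419). The epithelial sodium channel subunits Scnn1b and Scnn1g did not pass 3 counts, and Scnn1a had a log2 fold change of 0.05 ± 0.20. Of these calls, 0 passed without ROSA 1, without ROSA 2 or without both, and 1 passed without BMPR2 DELX 2 or without BMPR2 DELX 4. Over the 17 alternatives, log2 fold changes ran from -0.53 to -0.38 for Nedd4l, -1.71 to -1.09 for Atp1b1 and -0.70 to -0.28 for Per1.

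The tested genes most like Sgk1 over the 8 libraries were sought among 8998 others with a mean of at least 10 CPM. Likeness was the root mean square difference of log2 CPM after centring each gene on its mean. The 5 closest were Cd55, which protects cells from complement (0.111), the chemokine gene Ccl2 (0.112), the atypical kinase Mapk6 (0.116), the polyamine acetyltransferase Sat1 (0.128) and Tceal9 (0.135). Cd55, for example, had 27.6, 22.2, 21.3 and 20.8 CPM in BMPR2 DELX 1 to 4 and 36.9, 45.9, 33.1 and 28.0 CPM in ROSA 1 to 4, with ROSA 2 highest, as for Sgk1.

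Fkbp5 (ENSMUSG00000024222, chromosome 17, 28399094 to 28517527) encodes a cochaperone that lowers the receptor's affinity for hormone and is among the most widely induced glucocorticoid targets. It had 53.8, 47.1, 48.1 and 39.2 CPM in BMPR2 DELX 1 to 4 and 62.5, 55.0, 57.8 and 46.2 CPM in ROSA 1 to 4. The groups overlapped, since ROSA 4 lay below 3 BMPR2 DELX libraries, while ROSA 1 was the highest of all. In log2, the difference was -0.24 ± 0.11, with an edgeR adjusted p of 0.214 and an interval of -0.49 to 0.01. It was -0.13 ± 0.14 without ROSA 1 and ROSA 2.

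Tsc22d3 (ENSMUSG00000031431, chromosome X, 140539528 to 140600659) encodes a leucine zipper protein that carries part of the anti-inflammatory action of glucocorticoids. It had 11.8, 12.3, 14.3 and 18.1 CPM in BMPR2 DELX 1 to 4 and 15.5, 19.8, 15.4 and 14.4 CPM in ROSA 1 to 4. BMPR2 DELX 4 was above 3 of the ROSA libraries, and the other BMPR2 DELX libraries were below all of ROSA. By the fit, BMPR2 DELX differed from ROSA by -0.20 ± 0.15 in log2, with an edgeR adjusted p of 0.418 and an interval of -0.54 to 0.13. Without ROSA 1 and ROSA 2 the value was -0.06 ± 0.17.

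Klf9 (ENSMUSG00000033863, chromosome 19, 23141226 to 23168134), a Krüppel-like repressor induced early by glucocorticoids, had 53.5, 47.5, 56.9 and 60.4 CPM in BMPR2 DELX 1 to 4. In ROSA 1 to 4 it had 63.2, 66.4, 44.5 and 53.6 CPM. The groups overlapped, and both the highest and the lowest library were from ROSA. The log2 fold change was -0.06 ± 0.13, with an edgeR adjusted p of 0.792 and an interval of -0.34 to 0.22, and it turned to 0.17 without ROSA 1 and ROSA 2.

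Zbtb16 (ENSMUSG00000066687, chromosome 9, 48654297 to 48836222), a zinc finger repressor that glucocorticoids raise steeply in many stromal cells, was at the limit of detection. It had 0 counts in BMPR2 DELX 1, BMPR2 DELX 4 and ROSA 2 and at most 2 counts in any other library, with 3 counts over BMPR2 DELX and 4 over ROSA. All libraries were thus under the 3 counts that a count of 0 allows, 0.0687 to 0.104 CPM, and the gene was not tested. No difference was detectable at this depth.

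**Figure D4:**
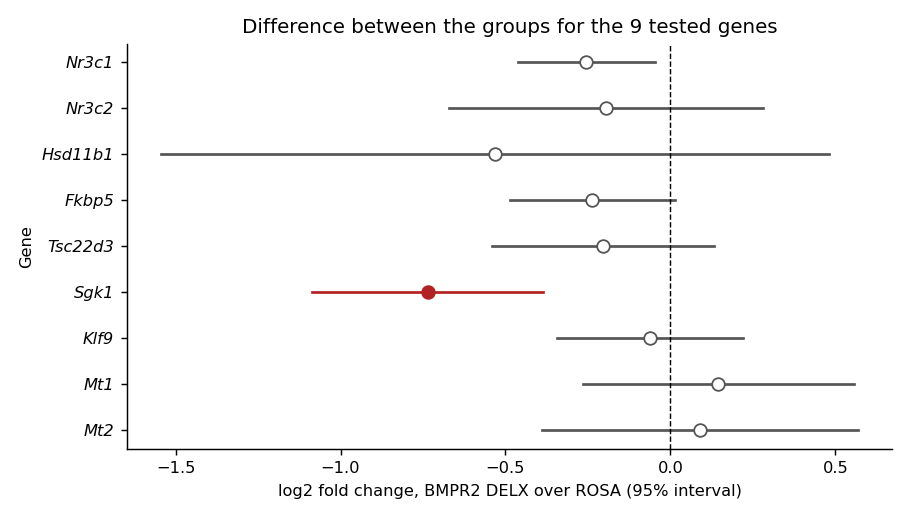
Log2 fold changes of the 9 tested genes, BMPR2 DELX over ROSA, with 95% intervals as lines, Sgk1 filled as the gene with an adjusted p below 0.05. Points run from -0.74 (Sgk1) to 0.15 (Mt1), and the intervals of all genes but Sgk1 and Nr3c1 include 0.

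Mt1 (ENSMUSG00000031765, chromosome 8, 94179082 to 94180327) and its neighbour Mt2 (ENSMUSG00000031762, 94172664 to 94173568) encode metallothioneins, small cysteine-rich proteins that bind zinc and copper. Mt1 had 102, 115, 132 and 166 CPM in BMPR2 DELX 1 to 4 and 145, 129, 102 and 90.1 CPM in ROSA 1 to 4. Mt2 had 52.8, 56.0, 72.3 and 82.7 CPM in BMPR2 DELX 1 to 4 and 80.8, 70.7, 50.9 and 45.6 CPM in ROSA 1 to 4. Both genes were highest in BMPR2 DELX 4 and ROSA 1 of their groups, lowest in BMPR2 DELX 1 and ROSA 4, and their groups overlapped. The ratio of Mt1 to Mt2 counts stayed between 1.79 and 2.05 in all 8 libraries, a far smaller spread than that of either level. The log2 fold change was 0.15 ± 0.18 for Mt1 (edgeR adjusted p 0.655) and 0.09 ± 0.21 for Mt2 (adjusted p 0.822), with intervals of -0.27 to 0.56 and -0.39 to 0.57. Without ROSA 1 and ROSA 2 the values were 0.44 ± 0.18 (adjusted p 0.294, range 0.294 to 1.00 over 17 alternatives) and 0.47 ± 0.19 (adjusted p 0.274, range 0.274 to 0.991), and Mt2 turned to -0.039 without BMPR2 DELX 3 and ROSA 3.

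Metal handling genes, Mt1 and Mt2 included, had a median near that of all genes. Of 18 listed, 16 were tested, 1 was higher, 0 were lower and 15 were not called, with a median of -0.006. DESeq2 called 1 higher and 2 lower (Slc30a1 and Slc39a7), and without ROSA 4 the only call was Slc30a1, lower. Slc39a1, a zinc importer, rose by 0.27 ± 0.07 (edgeR adjusted p 0.0459), with a mean of 171 ± 13.0 CPM against 142 ± 7.96 CPM in ROSA. That call was lost in 7 of 8 fits without 1 library, all but the one without BMPR2 DELX 1. Slc30a1, a zinc exporter that metals induce together with the metallothioneins, averaged 30.3 ± 1.10 CPM in BMPR2 DELX against 40.7 ± 8.15 CPM in ROSA (log2 fold change -0.42 ± 0.13, adjusted p 0.0628). Slc39a7, which releases zinc from the endoplasmic reticulum, had a log2 fold change of -0.38 ± 0.12 (adjusted p 0.0790), and Slc30a7, a zinc transporter of the Golgi, one of 0.16 ± 0.06 (adjusted p 0.134).

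Further genes known to be induced by glucocorticoids were called in both directions. Of 48 listed, 40 were tested, 5 were lower, 3 were higher and 32 were not called. The median was -0.09 and turned to 0.04 without ROSA 1 and ROSA 2. Among all tested genes, 5.15% were called lower and 3.96% higher. Higher and lower calls were equal in number with no count filter (3 and 3) and with DESeq2 (6 and 6). Pdk4, the kinase that shuts down pyruvate oxidation, fell by 1.35 (SE 0.07, edgeR adjusted p 3.7e-05), with a mean of 32.0 ± 1.96 CPM against 81.6 ± 5.58 CPM in ROSA. Angptl4, a secreted inhibitor of lipoprotein lipase, fell by 1.05 (SE 0.10, adjusted p 0.0013), with a mean of 27.5 ± 1.63 CPM against 56.9 ± 7.83 CPM in ROSA. Irs2, an insulin receptor substrate, fell by 0.49 (SE 0.10), and Tgm2, a transglutaminase of the matrix, fell by 0.73 (SE 0.15), with a mean of 856 ± 137 CPM against 1415 ± 279 CPM in ROSA. Per1 fell from 46.3 ± 10.1 to 31.2 ± 3.22 CPM. In the other direction, Cebpd, an early factor of adipogenesis, rose by 0.47 ± 0.12, Sesn1, a stress-induced inhibitor of growth signalling, by 0.45 ± 0.12, and Foxo3, a transcription factor of starvation, by 0.28 ± 0.07.

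The number of these genes called depended on single libraries. Without ROSA 1 it was 2, without BMPR2 DELX 2 it was 3, without BMPR2 DELX 1 or BMPR2 DELX 4 it was 4, without BMPR2 DELX 3, ROSA 2 or ROSA 3 it was 5, and without ROSA 1 and ROSA 2 together it was 3. Pdk4 and Angptl4 passed in every such fit. Irs2 lost the call without ROSA 1, Tgm2 in 3 of the 8 fits without 1 library, Per1 in 6, Cebpd and Foxo3 in 7 each and Sesn1 in 8. Of the 40 tested genes, 3 (Dusp1, Zfp36 and Btg2) were also on the immediate early list, and Btg2 had 171 and 174 CPM in ROSA 1 and ROSA 2 against 31.9 to 46.9 CPM elsewhere. The liver genes Tat and Pck1 stayed at or under 0.156 CPM.

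Genes that glucocorticoids are known to repress were more often lower than higher in BMPR2 DELX. Of 26 listed, 16 were tested, 7 were lower, 1 was higher and 8 were not called, with a median of -0.69. Across all tested genes, 5.15% were called lower and 3.96% higher, and the median was 0.0045. This list, like the others, was chosen with earlier results of these data known. Ptgs2, the inducible cyclooxygenase, fell by 1.77 (SE 0.23, edgeR adjusted p 0.0050), with a mean of 476 ± 61.9 CPM against 1624 ± 537 CPM in ROSA. The matrix metalloproteinases Mmp10 and Mmp13 fell by 1.66 (SE 0.25) and 1.43 (SE 0.23), to means of 1.43 ± 0.314 and 1.83 ± 0.434 CPM against 4.55 ± 1.51 and 4.92 ± 1.23 CPM in ROSA. The cytokine gene Il11 fell by 1.12 (SE 0.19), with a mean of 51.0 ± 5.42 CPM against 111 ± 33.3 CPM in ROSA. The chemokines Cxcl5, Ccl2 and Ccl7 fell by 1.37, 0.78 and 0.40. Vcam1, a leukocyte adhesion molecule, rose by 0.46 ± 0.12, with a mean of 30.7 ± 5.58 CPM against 22.3 ± 1.48 CPM in ROSA. Il6, the best known of the repressed cytokines, showed -0.04 ± 0.25 in log2, at 27.5 to 48.5 CPM in BMPR2 DELX against 30.0 to 53.3 CPM in ROSA. The summed macrophage markers were 37.4 to 70.1 CPM in BMPR2 DELX against 25.0 to 36.4 CPM in ROSA. Csf1r, the largest part of that sum, had 21.1 to 38.1 against 19.5 to 26.6 CPM and was not called. All 4 tested macrophage markers had a log2 fold change above 0, while Ptprc, which was not tested, averaged 0.246 against 0.374 CPM. The part of macrophages in the induced and repressed lists was not tested.

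Ptgs2, Mmp10, Mmp13 and Il11 passed without each library in turn, and Cxcl5, Ccl2, Vcam1 and Ccl7 lost the call in 6 or 7 of the 8 fits. The count was 4 without BMPR2 DELX 2, BMPR2 DELX 4 or ROSA 2, 5 without BMPR2 DELX 1, BMPR2 DELX 3 or ROSA 1, and 2 (Ptgs2 and Mmp10) without ROSA 1 and ROSA 2, where the median was -0.47. Il1b and Crh had at most 3 counts in any library.

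**Figure D5:**
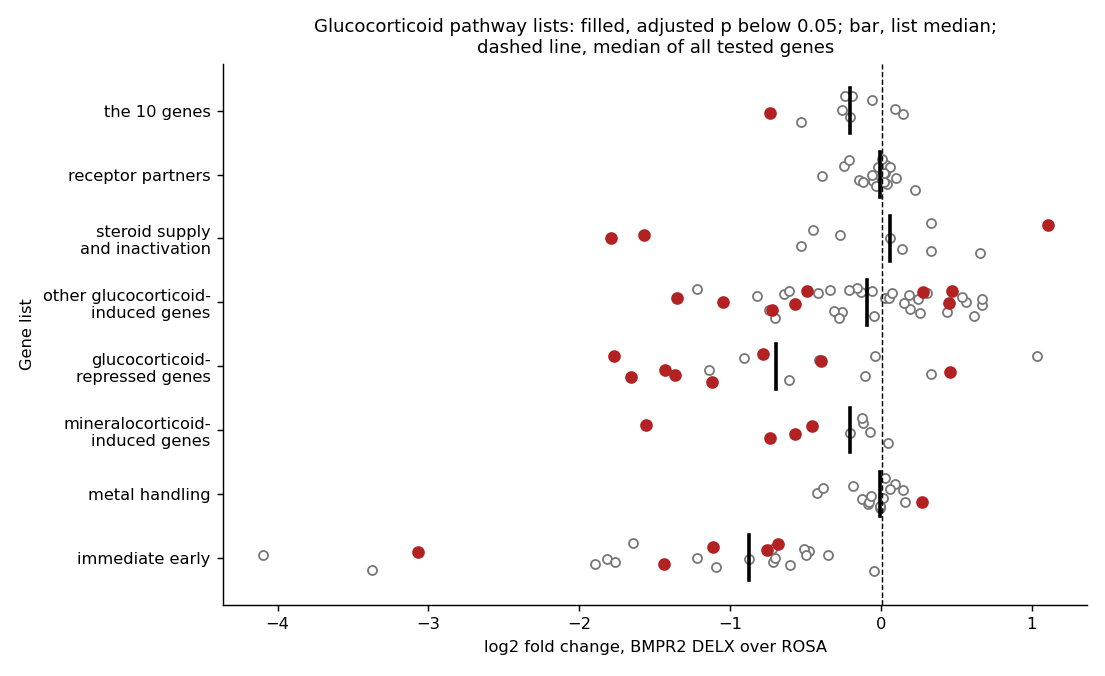
Log2 fold changes of the tested genes of each list, BMPR2 DELX over ROSA, 1 point per gene, filled red where the adjusted p was below 0.05, with a black bar at the list median and a dashed line at the median of all tested genes (0.0045). The median lies at -0.69 for the repressed list and at -0.88 for the immediate early list, and at -0.09 for the other induced genes.

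Immediate early genes, which were used to mark the 2 ROSA libraries that stand apart, held 5 lower and 18 uncalled genes of 23 tested. Their median was -0.88, against 0.0045 over all tested genes, of which 5.15% were called lower. Arc, a synaptic regulator, fell by 3.07 (SE 0.72), with 2.03 to 4.56 CPM in BMPR2 DELX against 6.51 to 62.1 CPM in ROSA. Nr4a2, an orphan receptor, fell by 1.44 (SE 0.24). Fosl1, an AP-1 subunit, fell by 1.11 (SE 0.17), Klf6, a zinc finger factor, by 0.76 (SE 0.17) and Maff, a small basic leucine zipper factor, by 0.68 (SE 0.08). Without ROSA 1 and ROSA 2, 2 of them passed and the median was -0.12. The count was 8 without ROSA 3 and 11 without ROSA 4, and 3 without ROSA 1, ROSA 2 or BMPR2 DELX 1, BMPR2 DELX 2 or BMPR2 DELX 4. Of the 8 fits without 1 library, Arc lost the call in 6, Klf6 in 5, and Maff, Fosl1 and Nr4a2 in 0.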

How the data were processed

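Raw read counts per Ensembl gene were deposited by the authors, 1 file per sample, and were not normalized. The submitters' processing notes list STAR 2.5.2b, HTSeq and the build GRCm38 without saying which made the counts. The annotation release, read layout and filters are not given in the sources used here. The 4 lines of each file that name no gene (14.7% to 22.0% of reads) were left out of library sizes and tests. The opposite-strand column held 92.1% to 94.0% of strand-assigned counts and was used. GENCODE M21 gave symbols and GRCm38 positions for 49412 of 49671 gene IDs.

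Genes were filtered with filterByExpr, which left 14887, scaled with TMM factors and tested with the edgeR 4.0.16 quasi-likelihood test (robust dispersion, R 4.3.3) and Benjamini-Hochberg adjustment over all tested genes, called below 0.05. Standard errors were taken from each log2 fold change and its F statistic. Scores are mean log2 CPM of tested list genes with a prior count of 2. Samples were grouped by title, all 8 entered, and no replicate term was used. A count of 0 allows up to 3 counts, for counting error only. The test was tried on simulated counts with planted changes. Python 3.11.15 and matplotlib 3.10.9 were used for tables and figures.

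The 10 genes and the 8 pathway lists were chosen with earlier results of these data known. The text names the 10 genes, each called gene of a list and the 4 with the smallest p in it, and the 5 genes most like the member with the smallest p. Btg2, Il6, Scnn1a, Cyp11b1, the named marker genes (Pax8 and Krt19 included), genes with few or no counts and the genes said to be on 2 lists were named after their values were seen. A gene that this rule names is not reported here. The older name Ctgf was matched to Ccn2. Alternatives were DESeq2 1.42.0, upper-quartile factors, factors by relative log expression, no filter, 1 CPM in 4 libraries, the unstranded column, a replicate block, leaving out each library, and leaving out the pairs ROSA 1 with ROSA 2 and BMPR2 DELX 3 with ROSA 3.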

Additional observations from a re-analysis of the deposited data

Results flagged for a closer look

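Within groups of 4, 92 sets of values were screened for a library far from the other 3, and 2 were found, where chance gives about 1 in 20. Pgr stood at 10.3 CPM in ROSA 4, against 3.76 to 4.85 CPM in the other ROSA libraries. Vcam1 stood at 39.0 CPM in BMPR2 DELX 3, against 27.1 to 28.4 CPM in the other BMPR2 DELX libraries. None of the 10 receptor, enzyme and target genes had such a library among the 9 with more than 3 counts.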

How the results depend on the processing

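Of the 10 genes, 1 was called as reported, 0 with no count filter, 0 without ROSA 1 and ROSA 2, and 0 to 1 when 1 library was left out. All tested genes gave 1355 calls, 172 without ROSA 1 and ROSA 2, 631 without BMPR2 DELX 3 and ROSA 3, 2266 with DESeq2, and 477 to 1266 without 1 library. Without ROSA 1 and ROSA 2, calls among steroid supply genes, receptors of the same element, mineralocorticoid pathway genes and metal handling genes came to 0 in each list. Calls then came to 3 among induced genes, 2 among repressed genes and 2 among immediate early genes. Without BMPR2 DELX 3 and ROSA 3 they were 4 among induced, 4 among repressed and 0 among metal handling genes. With no count filter they were 1 among mineralocorticoid pathway genes and 3 among immediate early genes. DESeq2 called 2 receptor partners, 3 metal handling and 11 immediate early genes. Without 1 library the ranges were 0 to 2 for receptor partners, 2 to 4 for steroid supply, 2 to 8 for induced, 4 to 6 for repressed, 0 to 4 for mineralocorticoid, 0 to 1 for metal handling and 3 to 11 for immediate early genes. Receptors of the same element held 1 call in each fit without 1 library. Cyp3a13 was under the stricter filter of 1 CPM in 4 libraries and has no value there.

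Directions turned for 3 of the 10 genes, none of them called. Hsd11b1 went to 0.0065 and Klf9 to 0.17 without ROSA 1 and ROSA 2, Mt2 to -0.039 without BMPR2 DELX 3 and ROSA 3, and without 1 library Klf9 ranged from -0.16 to 0.029 and Mt2 from -0.038 to 0.26. The cause was not tested. Same-numbered libraries correlated in their deviations from the group means at 0.0050, 0.21, 0.24 and 0.093 for numbers 1 to 4. For ROSA 2, ROSA 3 and ROSA 4 the same-numbered BMPR2 DELX library correlated most, while BMPR2 DELX 1 correlated more with ROSA 2 (0.18). With 4 libraries in each group these values cannot show whether a number marks a shared animal or day, and the labels do not say. With the replicate block 1245 genes were called, and Slc39a1 (leaving 0 metal handling genes), Per1, Sesn1, Foxo3, Cxcl5, Ccl7 and Arc lost their calls. Induced genes then held 4 higher and 4 lower calls, and Sgk1 had an adjusted p of 0.0062. Zbtb16, at 3 and 4 counts per group, is limited by depth.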
